A study of Danio rerio with 6 samples.

Results

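The genes described here are 10 zebrafish genes of the wound response, of the Fos and Jun families and Atf3: *jun*, *junba*, *junbb*, *jund*, *fosaa*, *fosab*, *fosb*, *fosl1a*, *fosl2* and *atf3*. They were chosen by symbol from 32057 genes in the count table, and all 10 were found. The libraries came from larval tail fins, taken at 24 h post amputation (hpa), with 50 regenerated fins pooled in each. The control group (replicates 1 to 3) received the solvent DMSO and is labelled WT, and the rapamycin group (replicates 4 to 6) received 1 µM rapamycin, an inhibitor of mTOR complex 1. The drug or solvent was given from 2 days post fertilization (dpf), before the amputation at 3 dpf, so that wounding and early wound closure also took place under treatment. The label of the rapamycin samples reads "mtor inhibition" in the genotype field, but by the study's methods these are treated larvae and not mutants. No unamputated fin and no other time point is analysed here, and the values describe the drug contrast at 24 hpa and not the induction by the wound.

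Fos and Jun proteins are bZIP transcription factors, which hold a basic region for DNA contact and a leucine zipper for pairing. Jun proteins pair with each other or with Fos proteins, and the pairs form the factor AP-1. In mammals, *Fos* and *Jun* are immediate-early genes, switched on within minutes of a wound or a growth signal through ERK, JNK and p38 kinases without new protein synthesis. The Fos-related genes *Fosl1* and *Fosl2* follow later and are themselves AP-1 targets, while *Atf3* responds to cell stress. In the zebrafish fin, AP-1 genes are part of the response of wound epidermis and blastema to amputation.

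The pair *junba* and *junbb* has a particular place in the study. Probes for *junba* were used to label epithelial cells and probes for *junbb* to label mesenchymal cells in *mTOR*-KO fins. Both genes were reported as lower there. The gene-specific primers of these probes are shown because the forward primers show how alike the paralogs are at that end of the probed stretch. The reverse primers, which carry the promoter, were not compared. Capitals mark the bases at the 5′ end that both forward primers share, and the tail for the polymerase promoter on the reverse primers is left out.
junba forward: GACTCGTTTCTttctgcttatgg
junbb forward: GACTCGTTTCTgttgggttacgg
junba reverse: cgacaataacatcatcacaaacagg
junbb reverse: gcctccatcttactggtcagc
The forward primers share their first 11 bases and are identical at 18 of 23 positions. The table of gene names calls both genes JUNB, so they are told apart here by their gene IDs, ENSDARG00000074378 for *junba* and ENSDARG00000104773 for *junbb*. How the counting treated reads that fit both paralogs is not given in the sources used here, and their values may therefore share reads.

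Each library held between 49055607 and 54162044 counts. The rapamycin libraries lay close together, with a Pearson correlation of log2 CPM (the CPM is the count relative to the library size, scaled by TMM) of at least 0.962 across genes, which are not independent replicates. The control libraries lay apart, with 0.931 to 0.950, and control replicate 1 was about as close to the rapamycin libraries (0.937 to 0.943) as to the other two controls (0.946 and 0.931). Without it, edgeR called 3128 genes higher and 3151 lower, against 390 and 647 with all libraries. The SD of log2 CPM was larger in the control than in the rapamycin group for 75.5% of 19778 tested genes. Gene span, the distance from the start to the end of a gene with its introns, also moved with the libraries. Spearman's rho across genes of log2 CPM, centred per gene, with span was positive in control replicate 1 (0.21) and in the rapamycin group (0.16 to 0.30) but negative in the other two control libraries (-0.34 and -0.28). This bears on short genes such as the Jun genes, and values with the span trend removed are given beside the results. Epidermal markers (49573 to 75214 CPM summed over 14 genes) and fin mesenchyme markers (47978 to 108781 CPM over 13 genes) were abundant in every library, while markers of other cells were low. Several of these moved with the groups. Their calls stand beside 1.97% of all tested genes called higher and 3.27% called lower. Only 4 of 11 listed muscle, 3 of 7 erythrocyte and 5 of 7 neuron markers were matched. The 4 muscle markers summed to 280 to 326 CPM in the control and 201 to 270 CPM in the rapamycin libraries. The 3 erythrocyte markers, of which 2 were called lower, summed to 84.7 to 105 CPM against 21.2 to 36.8 CPM. The neuron markers, 2 of 4 tested called lower, summed to 9.53 to 19.4 CPM against 3.37 to 5.16 CPM. The 5 pigment cell markers summed to 141 to 212 CPM against 82.8 to 129 CPM, with 1 called lower and 2 with a log2 fold change above 0. The 5 endothelium markers summed to 42.0 to 49.5 CPM against 28.5 to 37.9 CPM, with none called and 1 above 0. The 5 ionocyte markers, of which 1 was called higher, summed to 131 to 241 CPM against 333 to 358 CPM. That higher sum did not hold marker by marker, since only 1 of the 5 had a log2 fold change above 0. Their median log2 fold change was -0.66. The macrophage sums overlapped, with 3 of 9 tested markers called lower and 5 with a log2 fold change above 0. The median log2 fold change of the macrophage markers was 0.11. The part of these cells in the results was not tested.

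Of the 9 members with enough counts to be tested, *fosl2* rose in the rapamycin fins, none fell and 8 did not pass edgeR's quasi-likelihood test at an adjusted p under 0.05. Among all tested genes, 1.97% were called higher and 3.27% lower, 5.24% in all. The members fell into a pair of patterns. For *fosb*, *fosl1a*, *fosl2* and *atf3*, every rapamycin library lay above every control library, which was the case for 14.8% of all tested genes. For 15.9% of all tested genes and none of the members, every rapamycin library lay below every control library. For *jun*, *junba*, *junbb*, *jund* and *fosab*, the groups overlapped. The median log2 fold change over the 9 members was 0.28, and it was 0.00 over all tested genes (0.0014 before rounding). By unadjusted p under 0.05 in edgeR, 4 members were higher and 0 lower, against 10.1% and 13.3% of all tested genes. Without control replicate 1, 4 members were called higher, and without any 1 of the other libraries 0 were. Of all tested genes, 3128 of 20220 were called higher without control replicate 1 and 332 of 20448 without control replicate 3. Without control replicate 2 or any 1 rapamycin library, 47 to 59 of 20276 to 20455 genes were called higher. In bulk tissue, a change in the number of cells of a type and a change in the RNA of each cell cannot be told apart.

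**Figure D1:**
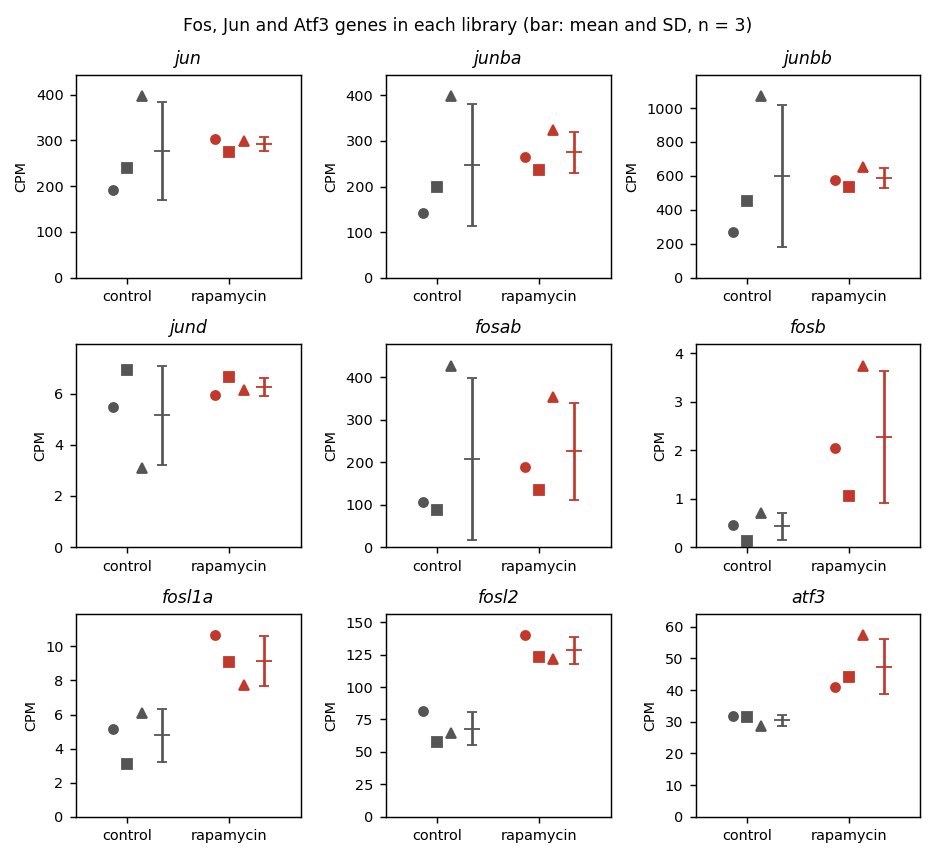
TMM-scaled CPM (vertical axes, linear, starting at 0) of 9 members in each of 6 libraries. Circles, squares and triangles are replicates 1, 2 and 3 of the control and 4, 5 and 6 of the rapamycin group, and bars give the mean and SD of 3 libraries. The control values of *jun*, *junba*, *junbb* and *fosab* run from far below to above the rapamycin values, while *fosb*, *fosl1a*, *fosl2* and *atf3* show no overlap between the groups.

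Among the Fos-related genes, *fosl2* (ENSDARG00000040623), which encodes Fra-2, had 81.7, 57.3 and 64.7 CPM in control replicates 1 to 3 and 140, 123 and 122 CPM in rapamycin replicates 4 to 6. The lowest rapamycin library stood well above the highest control library. On average, 3 control libraries had 67.9 ± 12.5 CPM and 3 rapamycin libraries 128 ± 10.1 CPM (mean ± SD), and the log2 fold change was 0.92 (SE, the standard error, 0.18; edgeR, adjusted p = 0.0254), or 1.89-fold. With the span trend removed it was 0.98 (edgeR, adjusted p = 0.0171). The call was lost with scaling by library size only (edgeR, adjusted p = 0.0550) and without single libraries. Without any 1 library other than control replicate 1, its log2 fold change lay between 0.81 and 0.96 and its adjusted p from edgeR between 0.0525 and 0.140, while without control replicate 1 they were 1.06 and 8.17e-04.

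*fosl1a* (ENSDARG00000015355), which encodes Fra-1, had about the same fold change at a lower count. It had 5.16, 3.08 and 6.11 CPM in the control and 10.6, 9.10 and 7.70 CPM in the rapamycin libraries. The groups did not overlap, but the gap between the nearest libraries was smaller than the range within either group. Its log2 fold change was 0.94 (SE 0.31, 95% confidence interval 0.25 to 1.63). It was not called in edgeR (adjusted p = 0.108), nor with the span trend removed (95% confidence interval 0.41 to 1.80, edgeR, adjusted p = 0.0642). *fosl1a* had an adjusted p under the threshold without control replicate 1 (0.0485 from edgeR) and in limma-voom with sample weights (0.00779).

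*fosb* (ENSDARG00000055751), a Fos gene close to *fosab* in its domains, had the highest fold change of the members and the fewest counts among those tested. It had 28, 7 and 31 counts in the control and 109, 57 and 197 counts in the rapamycin libraries, or 0.456, 0.133 and 0.702 CPM against 2.05, 1.05 and 3.74 CPM. Every rapamycin library was higher, while the rapamycin libraries themselves differed by 3.56-fold. The log2 fold change was 2.41 (SE 0.68, 95% confidence interval 0.87 to 3.94). *fosb* missed the threshold in edgeR (adjusted p = 0.0740) and passed it in DESeq2 (adjusted p = 0.0127). With the span trend removed it stood at 2.58 and was not called (edgeR, adjusted p = 0.0574). It had an adjusted p of 0.0452 from edgeR without control replicate 1.

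*atf3* (ENSDARG00000007823), a stress-induced bZIP gene whose protein pairs with Jun proteins, was the steadiest member within the control group. It had 31.7, 31.4 and 28.5 CPM in control replicates 1 to 3 and 40.9, 44.1 and 57.3 CPM in rapamycin replicates 4 to 6. The control libraries differed by 1.11-fold and all lay below the lowest rapamycin library. For *atf3* the log2 fold change was 0.64 (SE 0.19, 95% confidence interval 0.22 to 1.05). The gene was not called in edgeR (adjusted p = 0.0802). It passed in DESeq2 (adjusted p = 0.0346), in edgeR with the span trend removed (log2 fold change 0.83, adjusted p = 0.0334) and in edgeR without control replicate 1 (adjusted p = 0.0184).

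*fosab* (ENSDARG00000031683, named FOS in the table of gene names), the zebrafish counterpart of the immediate-early gene *Fos*, was among the genes with the largest differences between libraries of the same group. It had 106, 88.6 and 427 CPM in control replicates 1 to 3 and 188, 134 and 354 CPM in rapamycin replicates 4 to 6. In each group 1 library, control replicate 3 or rapamycin replicate 6, stood far above the other two. Its SD of log2 CPM within groups was 1.01, larger than that of 99.6% of the 9923 genes with a mean log2 CPM of at least 3, for which the median was 0.26. The means were 207 ± 190 CPM (SD, n = 3) and 225 ± 115 CPM (SD, n = 3). The log2 fold change of 0.12 had a 95% confidence interval from -1.18 to 1.42 (edgeR, adjusted p = 0.917), which takes in a 2-fold difference in either direction. Without control replicate 3 it was 1.21 (edgeR, adjusted p = 0.114), and without rapamycin replicate 6 it was -0.36. With the span trend removed it was 0.44 (95% confidence interval -0.79 to 1.68, edgeR, adjusted p = 0.668).

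*fosb* shared part of this pattern, since control replicate 3 and rapamycin replicate 6 were also its highest libraries within their groups. The same held for *junba* and *junbb*, and for *jun* in the control group only. The immediate-early gene *egr1*, which answers to many of the same signals and was picked here after its values were seen, had 57.4, 35.8 and 54.1 CPM in the control and 87.6, 37.3 and 118 CPM in the rapamycin libraries. Rapamycin replicate 6 was thus the highest of its group for *fosab*, *fosb*, *junba*, *junbb* and *egr1*, while control replicate 3 was not the highest control library for *egr1*. The 15 heat shock genes tested, which respond to cell stress, summed to similar levels in all libraries (486 to 548 CPM in the control and 494 to 563 CPM in the rapamycin libraries). Single genes of this sum went in both directions. Every rapamycin library lay above every control library in 2 of them and below in 3, beside 14.8% and 15.9% of all tested genes.

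*fosaa* (ENSDARG00000040135), the paralog of *fosab*, was close to undetected. It had 15, 2 and 0 counts in the control and 0, 9 and 0 counts in the rapamycin libraries, and it did not pass the low-count filter. A count of 0 allows up to 3 counts, which in these libraries stands for 0.0489 to 0.0679 CPM, and no fold change is given for it. *fosab* supplied nearly all counts of this paralog pair in every library.

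The 3 abundant Jun genes had nearly the same pattern over the libraries. *jun* (ENSDARG00000043531), the counterpart of mammalian c-Jun, had 193, 240 and 396 CPM in control replicates 1 to 3 and 303, 274 and 299 CPM in rapamycin replicates 4 to 6. The control libraries lay on both sides of the rapamycin libraries, and the means were 276 ± 107 CPM (SD, n = 3) and 292 ± 15.6 CPM (SD, n = 3). The log2 fold change was 0.08 (95% confidence interval -0.50 to 0.66, edgeR, adjusted p = 0.875).

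*junba*, the study's epithelial label, had 142, 200 and 398 CPM in the control and 264, 237 and 324 CPM in the rapamycin libraries. As for *jun*, the lowest and the highest of the 6 libraries were control replicates 1 and 3. The estimated log2 fold change was 0.16 (95% confidence interval -0.60 to 0.92, edgeR, adjusted p = 0.812).

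*junbb*, the study's mesenchymal label, was the member with the most counts in every library. It had 269, 455 and 1069 CPM in the control and 573, 535 and 653 CPM in the rapamycin libraries. The control libraries differed by 3.97-fold and the rapamycin libraries by 1.22-fold. The means were 598 ± 419 CPM (SD, n = 3) and 587 ± 60.1 CPM (SD, n = 3), with a log2 fold change of -0.03 (95% confidence interval -0.96 to 0.91, edgeR, adjusted p = 0.979).

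The sign of these folds rested on single control libraries. Without control replicate 1, the log2 fold changes of *jun*, *junba* and *junbb* were -0.14, -0.13 and -0.39, and without control replicate 3 they were 0.43, 0.69 and 0.70, with an adjusted p from edgeR of at least 0.122 in each case. With the span trend removed, they were 0.43, 0.53 and 0.35 and were not called (adjusted p from edgeR of 0.321, 0.349 and 0.629). The fin mesenchyme markers moved with *jun*, *junba* and *junbb* over the control libraries. They summed to 47978, 63313 and 108781 CPM in control replicates 1 to 3 and to 59746 to 62430 CPM in the rapamycin libraries, so that control replicates 1 and 3 were again the lowest and the highest of the 6, and their part in the result was not tested. The median log2 fold change of the 13 mesenchyme markers was -0.18, with 5 above 0 and 1 called lower, beside 3.27% of all tested genes. The epidermal markers rose in the same order over the control libraries (49573, 54056 and 61810 CPM). They ran from 62075 to 75214 CPM in the rapamycin group.

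*jund* (ENSDARG00000067850), which in mammals is present in resting cells and responds less to growth signals, differed from the abundant Jun genes in control replicate 3. From control replicate 1 to 2 it rose as they did. It had 5.47, 6.90 and 3.08 CPM in control replicates 1 to 3 and 5.95, 6.65 and 6.15 CPM in rapamycin replicates 4 to 6. Control replicate 3, the highest library for *jun*, *junba*, *junbb* and *fosab*, was the lowest for *jund*. Its estimated log2 fold change was 0.28 (95% confidence interval -0.45 to 1.01, edgeR, adjusted p = 0.640). With the span trend removed it was 0.71 (95% confidence interval 0.04 to 1.37) and still not called (edgeR, adjusted p = 0.187).

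The spans of the Jun genes in the RefSeq annotation of GRCz12tu (998 to 1860 bases) allowed their levels to be set side by side per kilobase of span. On this scale *junbb* was highest, with 362 ± 254 CPM per kilobase in the control (SD, n = 3) and 355 ± 36.4 in the rapamycin libraries (SD, n = 3). *junba* had 159 ± 86.5 and 177 ± 28.5 CPM per kilobase, and *jun* had 149 ± 57.3 and 157 ± 8.37 CPM per kilobase (SD, n = 3 each). Within every library of both groups, *junbb* was above *junba*. Their ranges across libraries overlapped in the control, where the libraries lay far apart, and not in the rapamycin group. *jun* and *junba* did not differ beyond their spread. *jund* was far below, with 5.16 ± 1.93 and 6.26 ± 0.361 CPM per kilobase (SD, n = 3 each).

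The ratio of *junba* to *junbb* counts, which does not depend on how the libraries are scaled, was 0.529, 0.439 and 0.372 in control replicates 1 to 3 and 0.460, 0.443 and 0.496 in rapamycin replicates 4 to 6. The rapamycin values lay within the range of the control values. The log2 ratio differed by 0.08 between the groups (exact two-sided permutation test, p = 0.7, with 0.1 as the smallest p that 3 against 3 libraries allow). *junbb* had more counts than *junba* in every library.

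**Figure D2:**
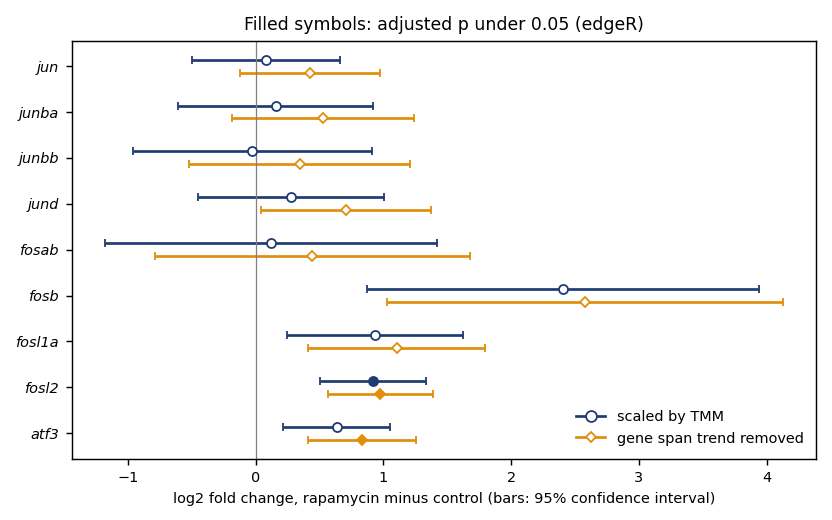
Log2 fold change (horizontal axis, rapamycin minus control) of the 9 tested members from edgeR with TMM scaling (circles) and with the trend on gene span removed (diamonds), with 95% confidence intervals. Filled symbols have an adjusted p under 0.05, which holds for *fosl2* in both fits and for *atf3* (0.83) with the span trend removed. The intervals of *jun*, *junba*, *junbb* and *fosab* include 0 in both fits, while that of *jund* includes 0 with TMM scaling only (0.04 to 1.37 with the span trend removed).

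Counted together, the 10 members took 0.0950%, 0.107% and 0.216% of all counts in control replicates 1 to 3 and 0.154%, 0.137% and 0.178% in rapamycin replicates 4 to 6. Within the member counts, *junba* held a steady share of 16.6% to 18.5% in every library. *junbb* held 32.2%, 42.0% and 44.7% of the member counts in the control and 37.5%, 39.2% and 35.7% in the rapamycin libraries. *jun* held 16.4% to 23.1% and *fosab* 8.19% to 19.4%. These shares are of read counts and not corrected for length. The share of *fosl2* was 9.78%, 5.29% and 2.70% in the control and 9.15%, 9.03% and 6.66% in the rapamycin libraries. Control replicate 1 thus had the highest share of *fosl2* among the members, although its level in CPM was below that of every rapamycin library. The make-up of the Fos, Jun and *atf3* counts overlapped between the groups for *fosl2*, *fosl1a* and *atf3*, whose levels in CPM did not. For *fosb* the shares did not overlap either. They were 0.0546%, 0.0123% and 0.0293% in the control and 0.134%, 0.0770% and 0.205% in the rapamycin libraries.

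The genes most like *junba* over the 6 libraries by Pearson's r of log2 CPM were SMAD6 (ENSDARG00000031763, 0.996), *zic5* (0.996) and ZIC2 (ENSDARG00000015554, 0.991). For *junbb* they were *dhx15* (0.998), *cers5* (0.995) and *kif3a* (0.992), and for *fosab* *mysm1* (0.976), *cblc* (0.976) and GCNT4 (ENSDARG00000035198, 0.970). Of 9071 genes compared, 213, 282 and 58 had an r over 0.9 with *junba*, *junbb* and *fosab*. With 6 libraries, of which the controls stand apart, such values are a description only.

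The genes around AP-1 were taken from lists of related factors, upstream kinases, other immediate-early genes and AP-1 targets. Of 33 listed genes known as AP-1 targets in mammals or carried by wound-induced zebrafish enhancers, 26 were matched. Some of the 26 also stood on the list of other immediate-early genes. All 26 were tested, 4 rose, none fell and 22 did not pass in edgeR, against 1.97% of all tested genes called higher. Every rapamycin library lay above every control library in 12 of them and below in 1, beside 14.8% and 15.9% of all tested genes. Their median log2 fold change was 0.50. Among those that rose were the laminin chain gene *lamb3* (log2 fold change 1.69, SE 0.32) of the epidermal basement membrane, the fibronectin receptor gene *itga5* (1.03, SE 0.20) and the collagenase gene *mmp13a* (1.27, SE 0.27), each with an adjusted p from edgeR of at most 0.0298. *lamb3* averaged 7.50 ± 3.15 CPM over 3 control and 24.2 ± 2.57 CPM over 3 rapamycin libraries (mean ± SD).

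Epidermal markers moved with these targets. The 14 matched epidermal markers had a median log2 fold change of 0.39, and *cdh1* (1.01, edgeR, adjusted p = 0.0414), the epithelial cadherin, and *cyt1l* (0.90, edgeR, adjusted p = 0.0351), a keratin of the outer layer, rose. In 7 of the 14 markers every rapamycin library lay above every control library, beside 14.8% of all tested genes. The ranges of the summed markers did not overlap but nearly met, at 61810 CPM in control replicate 3 and 62075 CPM in rapamycin replicate 4. No epidermal marker was at 0 in all libraries, and the part of the epidermis in the change of *fosl2* and the AP-1 targets was not tested. The count of targets called higher was 10 without control replicate 1, 3 without control replicate 3 and 1 without control replicate 2. It was 0 without any 1 of the rapamycin replicates. Of all tested genes, 3128 of 20220 were called higher without control replicate 1 and 332 of 20448 without control replicate 3. Without control replicate 2 they were 47 of 20276, and without any 1 rapamycin replicate 47 to 59 of 20423 to 20455.

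Of 58 matched genes on the list of other immediate-early genes, 56 were tested, of which *klf2b* rose and 1 fell, counts no higher than the 1.97% and 3.27% of all tested genes would give. *klf2b* had 55.3 ± 8.69 CPM over 3 control and 111 ± 32.8 CPM over 3 rapamycin libraries (mean ± SD), and its log2 fold change was 1.01 (SE 0.23; edgeR, adjusted p = 0.0418). The gene that fell was NAB1 (ENSDARG00000042940), a corepressor of Egr proteins. It had 0 counts in every rapamycin library, at least 55.7-fold lower than in the control when 3 counts over the group are taken as the floor (edgeR, adjusted p = 0.0160). The name NAB1 stands for a pair of gene IDs, of which the other was not called, and reads of these paralogs may not be told apart. The median log2 fold change of the list was 0.27, and every rapamycin library lay above every control library in 13 of the 56 genes and below in 2, beside 14.8% and 15.9% of all tested genes.

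Of 29 matched MAP kinase, Elk and Srf genes, 28 were tested and *map3k5* rose, while none fell, beside 1.97% and 3.27% of all tested genes. *map3k5*, which encodes the stress kinase ASK1 upstream of JNK and p38, had 8.81 ± 2.22 CPM over 3 control and 19.7 ± 1.25 CPM over 3 rapamycin libraries (mean ± SD), and its log2 fold change was 1.16 (SE 0.23; edgeR, adjusted p = 0.0258). The median of this list was 0.27. Without any 1 of the rapamycin libraries, no AP-1 target, other immediate-early gene or gene of the kinase list was called in edgeR. In those fits, only 47 to 59 of all tested genes were called higher and 65 to 79 lower.

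Of 45 matched bZIP relatives of Fos and Jun (other Fos-related genes and the BATF, JDP, ATF, CREB, MAF, BACH, NFE2L and CEBP families, with *ddit3* and *xbp1*), 41 were tested and none passed in edgeR. The Fos-related gene *fosl1b*, picked after its values were seen, had 0.635, 0.608 and 0.340 CPM in the control and 0.789, 0.258 and 0 CPM in the rapamycin libraries, and the groups overlapped. By unadjusted p under 0.05 in edgeR, 5 were higher and 3 lower, beside 10.1% and 13.3% of all tested genes, while DESeq2 called 1 higher and 1 lower and limma-voom called 0. The smallest unadjusted p values were those of *mafb*, with a log2 fold change of 0.61 (edgeR, adjusted p = 0.0633), and of *crema* (0.62, edgeR, adjusted p = 0.0970), the counterpart of the cAMP-responsive repressor gene *Crem*. The median was 0.13. Of 15 heat shock genes none passed in edgeR, with 2 higher and 3 lower at an unadjusted p under 0.05. DESeq2 called 1 higher and 2 lower, and limma-voom called 0 higher and 1 lower. The chaperonin gene *hspe1* (-0.78) had the smallest p in this list (edgeR, adjusted p = 0.0592).

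In *mTOR*-KO fins, the study reported lower expression of the genes it probed by in situ hybridization. Those matched here did not pass, and *junba* (0.16) was the only 1 of the 5 with a log2 fold change above 0. Besides *junba* and *junbb*, the mesenchymal labels *msx3*, *mvp* and *ilf2* were matched, while *fn1b* could not be told from its paralog in the table of gene names. *msx3*, a homeobox gene of the blastema, had a log2 fold change of -0.65 (edgeR, adjusted p = 0.258), the vault protein gene *mvp* -0.32 (edgeR, adjusted p = 0.597) and *ilf2* -0.60 (edgeR, adjusted p = 0.113). Only for *ilf2* did the groups not overlap, with every rapamycin library below every control library, as for 15.9% of all tested genes. By unadjusted p under 0.05 in edgeR, 0 of these 5 genes were higher and 1 lower, beside 10.1% and 13.3% of all tested genes. DESeq2 called 1 of them lower and limma-voom 0. Without control replicate 1, edgeR called 3 of the 5 lower, beside 3151 of 20220 tested genes. The probes were used in a mutant at a later time, and these libraries come from drug-treated fins at 24 hpa.

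**Figure D3:**
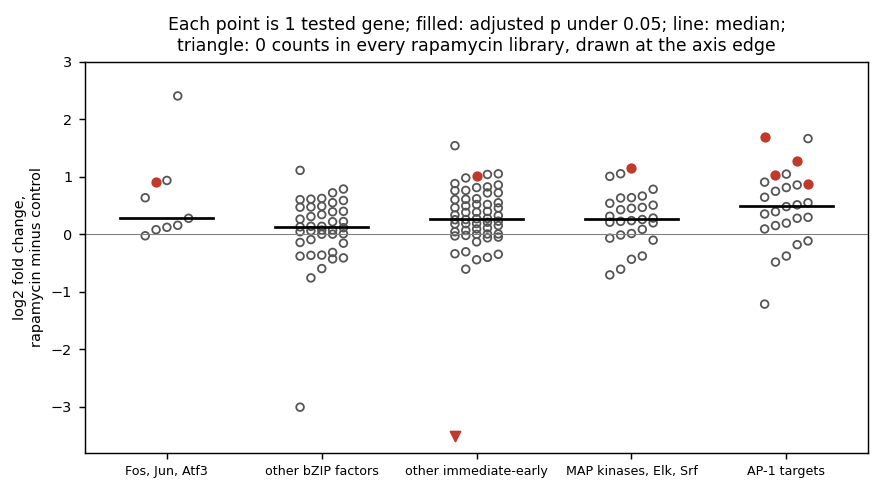
Log2 fold change (vertical axis, rapamycin minus control) of the tested members and of the tested genes of 4 lists, where each point is 1 gene and the line is the median of the list. Filled points have an adjusted p under 0.05 from edgeR, and the triangle at the lower edge marks NAB1, which had 0 counts in every rapamycin library. The medians are 0.28 for the members, 0.13 for other bZIP factors, 0.27 for other immediate-early genes, 0.27 for MAP kinases, Elk and Srf and 0.50 for AP-1 targets.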

How the data were processed

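RNA from 50 pooled fins per library was reverse transcribed with SMARTScribe, and the cDNA was cut with dsDNA fragmentase, amplified and sequenced from both ends. The authors deposited whole-number counts per gene, not normalized, with 1 column per library. Neither the aligner nor the counting tool is given in the sources used here. The submitters' processing notes list mm10, a mouse build, although all gene IDs are those of zebrafish, and no coordinates are printed. The labels do not say whether the pools came from separate clutches, so p-values measure the spread between these pools.

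Members were matched by symbol, by RefSeq synonym (*fosab*, *fosl1a*) or by the gene IDs of the rule (*junba*, *junbb*). The members and lists were chosen with earlier results of these data known. The test was the quasi-likelihood test of edgeR 4.0.16 in R 4.3.3 with robust dispersions, TMM scaling and no covariate, after filterByExpr (19778 genes kept). P-values were adjusted by Benjamini-Hochberg over all tested genes, and an adjusted p under 0.05 was a call. Log2 CPM used a prior count of 2. The SE is the log2 fold change over the root of F. Genes named beside the members are up to 4 called genes of each list with the smallest adjusted p, or the 2 smallest unadjusted p where none was called, and the in situ probe genes. A gene that this rule names is not reported here.

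Alternatives were DESeq2 1.42.0 (size factors, Wald test), upper quartile scaling, library size only, limma 3.58.1 voom with and without sample weights, no filter, a minimum of 10 counts per library, thresholds that also ask for an absolute log2 fold change of 1, removal of each library's loess trend on gene span (known for 67.5% of tested genes from the RefSeq annotation of GRCz12tu) and leaving out each library in turn. Floors cover counting error only, because PCR copies were not marked by molecular identifiers.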

Additional observations from a re-analysis of the deposited data

How the results depend on the processing

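No paired analysis was possible because the labels do not say which control and rapamycin libraries, if any, belong together. The counts below are genes called higher or lower, and the cause of each change was not tested. Among the members that were not called, *fosab*, *jun*, *junba* and *junbb* changed sign in some alternatives, while the higher level of *fosl2* kept its sign in all 17 and lost its call in 8 of them.

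DESeq2's Wald test called 3 members higher, with *fosb* at 2.39 and *atf3* at 0.62 on the log2 scale, and 975 genes higher and 1534 lower of all tested. It called 1 other bZIP factor higher and 1 lower, 8 other immediate-early genes higher, 2 genes of the kinase list higher and 1 lower, 8 AP-1 targets higher and 1 lower, 1 in situ probe gene lower, and 1 heat shock gene higher and 2 lower. Limma-voom called 566 genes higher and 676 lower of all tested. It called 6 AP-1 targets higher, 2 other immediate-early genes higher and 1 lower, 2 genes of the kinase list higher and 1 heat shock gene lower. With sample weights it called 3 members higher, with *fosl1a* at 1.23 and *atf3* at 0.60, and 2879 genes higher and 3112 lower of all tested. It then called 8 other bZIP factors higher and 3 lower, 12 other immediate-early genes higher and 3 lower, 9 genes of the kinase list higher and 2 lower, 11 AP-1 targets higher and 1 lower, 2 in situ probe genes lower, and 3 heat shock genes higher and 3 lower.

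With library size only, 0 members and 0 genes of the kinase list were called higher, with *fosl2* at 0.88 (edgeR, adjusted p = 0.0550). With that scaling, with upper quartile scaling, with no filter and with at least 10 counts in every library, 1 AP-1 target was called lower. With at least 10 counts in every library, 2 other immediate-early genes were called higher and 0 lower, 5 of 25 AP-1 targets higher and 1 heat shock gene lower. In that fit neither *fosb* nor NAB1 (ENSDARG00000042940) was tested. With the gene span trend removed, 2 members were called higher, *atf3* stood at 0.83 and the members' median at 0.71. The median over all 13351 genes tested in this fit was -0.0042. It was 0.28 for other bZIP factors, 0.57 for other immediate-early genes, 0.35 for the kinase list and 0.59 for AP-1 targets. For the in situ probe genes it was -0.32 and for the heat shock genes -0.14. The calls were then 2 of 34 other bZIP factors higher, and 4 of 39 other immediate-early genes higher and 0 lower. Of the kinase list 2 of 20 genes and of the AP-1 targets 5 of 20 were called higher, beside 372 of 13351 tested genes. These are the listed genes with a known span. NAB1 (ENSDARG00000042940) had none and was not tested in this fit. With an unadjusted p and at least a log2 difference of 1, 773 genes were higher and 1102 lower, *fosb* (2.41) passed and *fosl2* (0.92) did not. The lists then had 1 other bZIP factor lower, 4 other immediate-early genes higher, 3 genes of the kinase list higher, 1 AP-1 target lower and 1 heat shock gene lower. With an adjusted p and that fold, 0 members were called, and *fosl2* (0.92) was lost.

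Leaving out each library in turn gave 0 to 4 members called higher, 47 to 3128 genes higher and 65 to 3151 lower, 0 to 9 other bZIP factors higher and 0 to 4 lower, 0 to 9 other immediate-early genes higher and 0 to 3 lower, 0 to 9 genes of the kinase list higher and 0 to 2 lower, 0 to 10 AP-1 targets higher and 0 to 1 lower, 0 to 3 in situ probe genes lower, and 0 to 3 heat shock genes higher and 0 to 2 lower. The log2 fold changes then ran from 0.81 to 1.06 for *fosl2*, from 0.48 to 0.73 for *atf3*, from 1.85 to 2.93 for *fosb* and from 0.70 to 1.15 for *fosl1a*. Where 1 group kept 2 libraries, the spread was still pooled over both groups. Low counts limit *fosaa* and *fosb*, and the spread between libraries of the same group limits *fosab*.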
